A study of Bos taurus with 60 samples.

Results

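The endometria of 26 beef heifers, 19 with a strong and 7 with a weak interferon response, were compared at day 16 after insemination, out of 60 heifers whose endometrial RNA was sequenced. A heifer was placed by the level of 1 gene, MX2 (ENSBTAG00000008471), expressed as x = log2(CPM + 1). CPM are read counts scaled to a common library size, here the total of all reads counted on genes. Weak responders had x above 5.5 and below 8.7, and strong responders had x above 10. A further 20 heifers lay between the bounds and 14 lay under the lower bound, and both were left out of the comparison. All were synchronised, nulliparous, crossbred beef heifers. For 30 days before insemination each had received either a control supplement of rumen-protected palmitic acid (CON) or a fish-oil supplement rich in n-3 polyunsaturated fatty acids (PUFA), and for the 16 days after it each was either kept on a high plane of nutrition (High) or restricted to a low one (Low). The resulting dietary groups are CON_High, CON_Low, PUFA_High and PUFA_Low, and heifers are named by group and replicate number. The description deposited with the data gives the sizes of both PUFA groups the other way round from the sample labels, which were used here.

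At this stage the elongating ruminant conceptus secretes interferon tau, the signal for maternal recognition of pregnancy. It acts on the endometrium through the type I interferon receptor and STAT proteins, induces interferon-stimulated genes, and blocks the rise of the oxytocin receptor that would start the pulses of prostaglandin F2α that end the life of the corpus luteum. MX2 is a dynamin-like GTPase with antiviral activity and one of the classical interferon-stimulated genes of the bovine endometrium. The pregnancy status of individual heifers and the size of the conceptus were not analysed here, so "responder" refers to the MX2 level alone. The counts carry Ensembl identifiers, and nothing used here pairs them with symbols, so apart from MX2 genes are given by identifier without a function, and neither interferon-stimulated gene lists nor markers of the labelled tissue were examined. The samples were bulk tissue, in which fewer cells of a type and less RNA per cell cannot be told apart.

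MX2 levels chose the classes and are given as a description. In the 7 weak responders x was 7.20 in PUFA_Low replicate 1, 7.35 in PUFA_Low replicate 2, 7.57 in PUFA_Low replicate 13, 7.85 in CON_Low replicate 12, 8.21 in CON_High replicate 8, 8.32 in PUFA_High replicate 14 and 8.40 in CON_High replicate 7. In the 19 strong responders the lowest x was 10.04, the median 10.58 and the highest 11.17. The reads counted on MX2 ranged from 1700 to 3935 in weak and from 12040 to 27468 in strong responders, against 30 to 207 in the heifers under the lower bound. In CPM on library sizes scaled by the trimmed mean of M-values (TMM), MX2 averaged 238 ± 71.4 (SD, n = 7) in weak and 1638 ± 436 (SD, n = 19) in strong responders, compared with 9.25 ± 3.78 (SD, n = 14) under the lower bound and 777 ± 168 (SD, n = 20) between the bounds. The fitted difference, strong minus weak, was 2.80 on the log2 scale (SE 0.20). Fitted over all 60 heifers, weak responders stood 4.70 above the heifers under the lower bound on the same scale (SE 0.21).

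The lower bound fell in an empty stretch, whereas both upper bounds cut through closely spaced heifers. The highest heifer under the lower bound, PUFA_High replicate 2, had an x of 4.36, and the next above it was the lowest weak responder at 7.20. CON_Low replicate 7, at 8.701 and 4716 counts, lay just outside the weak class, and the highest weak responder was at 8.40. PUFA_High replicate 6, at 9.98, lay just under the strong class, whose lowest member was CON_Low replicate 10 at 10.04. Within PUFA_Low alone there was a wider gap, from the highest weak responder at 7.57 to the next heifer at 9.26.

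**Figure D1:**
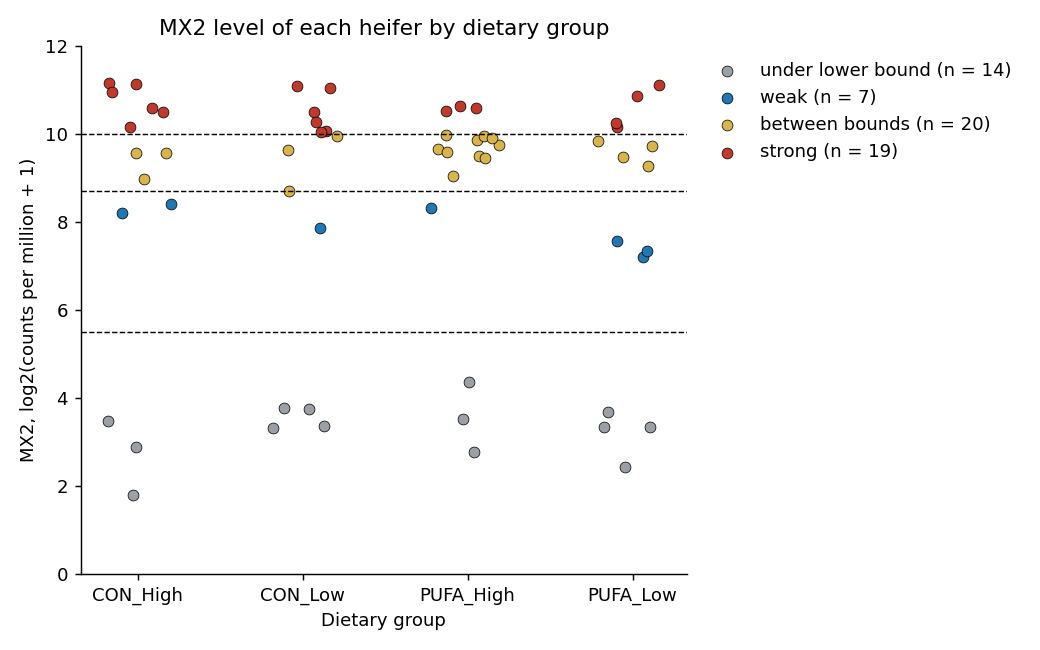
MX2 level of each of the 60 heifers, on the log2(CPM + 1) scale of the rule, by dietary group, with the class of each heifer in colour and the 3 bounds as dashed lines. No heifer lies between 4.36 and 7.20, while the bounds at 8.7 and 10 have heifers close to them on either side.

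Strong and weak responders came from all 4 dietary groups. There were 6 strong and 2 weak responders in CON_High, 6 and 1 in CON_Low, 3 and 1 in PUFA_High, and 4 and 3 in PUFA_Low. Class was not associated with dietary group (two-sided Fisher's exact test, p = 0.825), with supplement (p = 0.407), with plane (p = 1) or with the prefix of the library code in the labels (p = 1, Fisher's exact tests, adjusted p = 1 for each of the 4). With 7 weak responders these tests have little precision. The meaning of the library code is not stated, and 1 of its 6 prefixes, JE2, held no weak responder.

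The libraries of both classes were of similar depth. Total counts were 11724281 ± 800424 (SD, n = 19) in strong and 11640787 ± 977336 (SD, n = 7) in weak responders. No difference between the class means was found (two-sided exact permutation test, p = 0.826, adjusted p = 0.826 over 4 measures). The same held for the number of genes with at least 1 count (permutation test, adjusted p = 0.740) and the TMM factor (permutation test, adjusted p = 0.826). The 100 most abundant genes took 22.6% ± 2.94 (SD, n = 19) of the counts in strong and 24.7% ± 3.93 (SD, n = 7) in weak responders (two-sided exact permutation test, p = 0.153, adjusted p = 0.611). Within the strong class this share was 21.2% ± 1.13 (SD, n = 12) in CON and 25.1% ± 3.56 (SD, n = 7) in PUFA heifers.

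The transcriptomes of strong and weak responders differed in many genes, with more and larger differences towards higher abundance in strong responders. A quasi-likelihood model with class and dietary group as terms was fitted in edgeR, and a differentially expressed gene (DEG) was one that changed by more than 1.5-fold with a p-value under 0.10 after Benjamini-Hochberg adjustment. Of 14268 genes tested, 1429 were DEG (10.0%), of which 847 (5.94%) were at higher and 582 (4.08%) at lower abundance in strong responders. Before adjustment 4762 genes had a p-value under 0.05. Since the heifers were sorted on MX2, these tests measure how other genes go with the MX2 level across heifers, and MX2 itself was left untested. At an adjusted p-value under 0.001 there were 305 higher and 64 lower DEG. The count also fell, to 344 higher and 83 lower, with a replicate block, that is, with the replicate number of the labels as an added term. The labels do not give these numbers as a pairing of heifers.

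The higher DEG reached larger fold changes than the lower DEG. Among the 847 higher DEG, 401 exceeded 2-fold, 83 exceeded 4-fold and 18 exceeded 8-fold, and the median difference was 0.97 on the log2 scale (quartiles 0.74 and 1.40). Among the 582 lower DEG, 123 exceeded 2-fold, 4 exceeded 4-fold and 1 exceeded 8-fold, and the median difference was -0.77 (quartiles -0.96 and -0.66). Over all genes tested the median difference was -0.02. In 153 of the 847 higher DEG every strong responder lay above every weak responder in CPM, and in 14 of the 582 lower DEG every strong responder lay below every weak one. Such a separation was seen for 1.17% of all genes tested in the higher and for 0.133% in the lower direction. The DEG were selected on these same heifers, so their larger share follows from that choice and is no separate support.

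**Figure D2:**
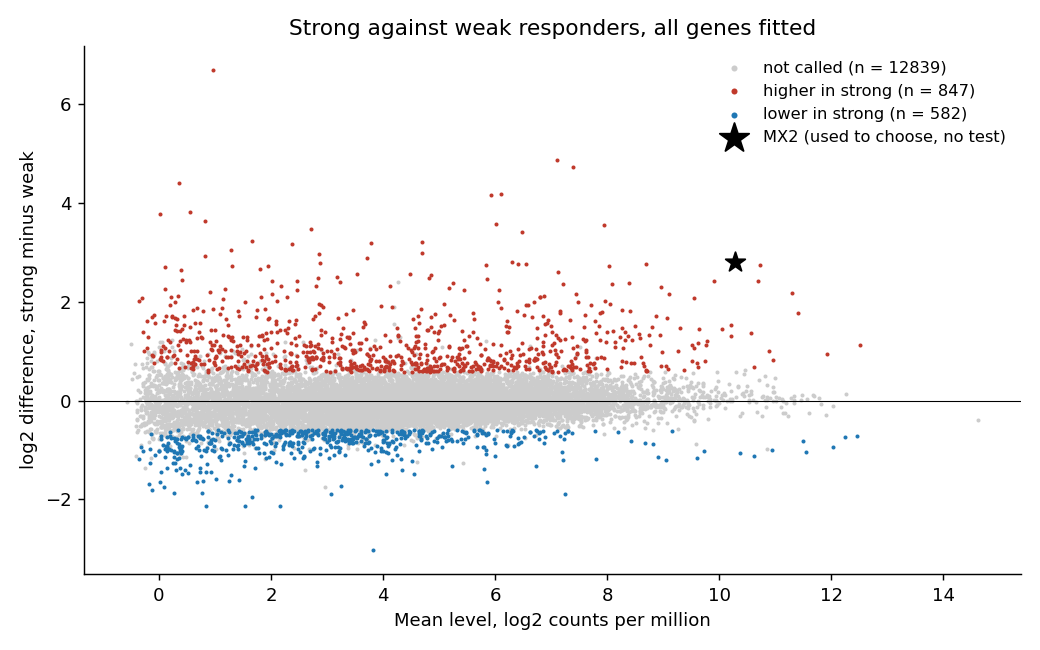
Difference between strong and weak responders (log2, strong minus weak) against the mean level (log2 CPM) for each gene fitted, with the 847 higher DEG in red, the 582 lower DEG in blue and MX2 as a star without a test. The red points extend beyond 4 on the log2 scale and are present across the range of levels, while nearly all blue points stay above -2.

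The counts of higher and lower DEG are also given by strata of transcript abundance. Among the 2058 genes with a mean level over 100 CPM, 185 were higher (8.99%) and 40 were lower (1.94%) in strong responders. Among the 7849 genes from 10 to 100 CPM, 327 were higher (4.17%) and 199 lower (2.54%). Among the 4125 genes from 1 to 10 CPM both directions were about equally frequent, with 322 higher (7.81%) and 334 lower (8.10%). Only 236 genes were under 1 CPM, 13 of them higher and 9 lower. The mean level was taken over the same 26 heifers, 19 of them strong. Higher DEG are thereby shifted towards the upper strata and lower DEG towards the lower ones. These shares are not corrected for that or for the greater precision of abundant genes, and the difference between the strata was not tested.

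The 2 higher DEG with the smallest p-values had a higher median in each successive MX2 class. The transcript of ENSBTAG00000019979 was present at 45.8 CPM in the lowest weak responder, at a median of 72.9 and at 104 CPM in the highest, and at 227, 312 and 395 CPM (lowest, median and highest) in strong responders. The classes did not overlap, and the fitted difference was 2.03 on the log2 scale (SE 0.14, edgeR's quasi-likelihood test, adjusted p = 1.27e-09). Weak responders were themselves above the heifers under the lower bound, which ranged from 10.0 to 20.3 CPM, by 2.30 (SE 0.14, edgeR, adjusted p = 1.02e-20). The heifers between the bounds, at 102 to 248 CPM, overlapped both classes in this gene.

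For ENSBTAG00000020536 the weak responders ranged from 137 to 253 CPM with a median of 228, and the strong responders from 492 to 855 CPM with a median of 677. Again the classes did not overlap, with a difference of 1.67 (SE 0.12, edgeR, adjusted p = 1.27e-09). The heifers under the lower bound had 29.1 to 49.1 CPM, which placed weak responders 2.33 above them (SE 0.12, edgeR, adjusted p = 6.69e-24). In both genes the 3 weak responders with the lowest MX2, all PUFA_Low heifers, also had the lowest values of the class.

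The 2 lower DEG with the smallest p-values showed another course. ENSBTAG00000001702 was present at 16.8 to 23.9 CPM in weak responders (median 18.1) and at 1.99 to 8.00 CPM in strong responders (median 5.65), without overlap. The difference was -1.72 (SE 0.19, edgeR's quasi-likelihood test, adjusted p = 2.72e-07). In the heifers under the lower bound it ranged from 6.38 to 20.7 CPM with a median of 16.0, a level from which weak responders differed by 0.34 (SE 0.20, edgeR, adjusted p = 0.562). The heifers between the bounds had 3.46 to 12.8 CPM, all below the lowest weak responder.

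ENSBTAG00000046160 was present at 33.5 to 40.3 CPM in weak responders (median 35.7) and at 18.1 to 30.2 CPM in strong responders (median 20.8). The classes did not overlap here either, although the difference was smaller at -0.77 (SE 0.08, edgeR, adjusted p = 3.02e-07). The heifers under the lower bound ranged from 26.6 to 60.7 CPM with a median of 38.4, against which weak responders differed by -0.09 (SE 0.12, edgeR, adjusted p = 0.841). With the heifers between the bounds counted as weak, the difference was -0.42 and under the fold limit. For both lower genes, weak responders were thus not separated by a test from the heifers under the lower bound, while for both higher genes they were.

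**Figure D3:**
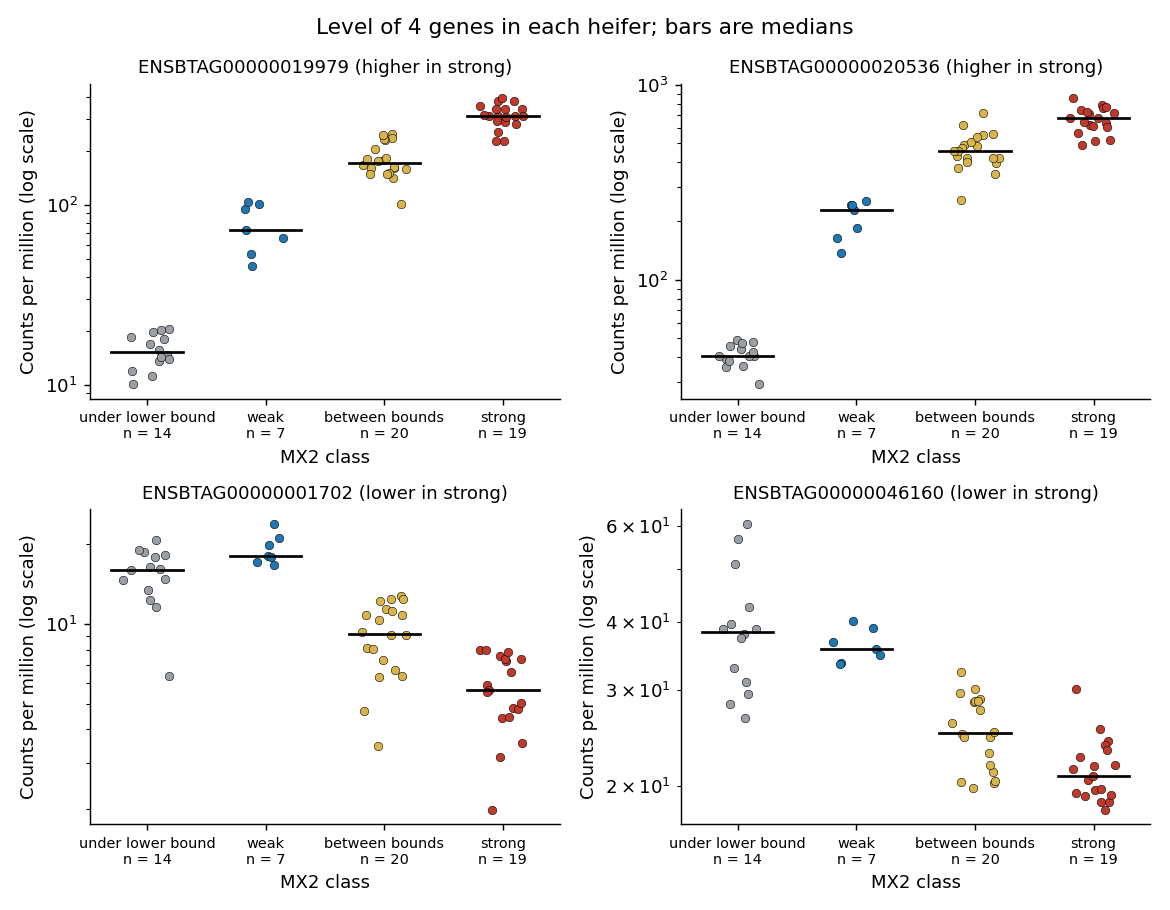
Level (CPM, log scale) of the 4 DEG described, by heifer and MX2 class, with bars at the class medians. The upper panels rise at each step between classes, while in the lower panels the weak responders lie within or near the range of the heifers under the lower bound and the fall is seen from there to the strong responders.

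The steps between classes over all DEG are given as a description, since the DEG were selected on the strong and weak heifers shown. As a set, the higher DEG did not share the large first step of the 2 higher genes above. The difference of class means on the log2(CPM + 1) scale was taken for each gene and step. For the 847 higher DEG the median step from the heifers under the lower bound to the weak responders was 0.11 (quartiles -0.08 and 0.40). Of these DEG 70 rose there by more than 1, against 93 of all 14268 genes tested, the DEG included. Genes with a large first step were thus mostly higher DEG, though most higher DEG had none. From weak responders to the heifers between the bounds the median step was 0.45 (quartiles 0.32 and 0.66), and from there to strong responders 0.34 (quartiles 0.21 and 0.51). For the 582 lower DEG the first step was 0.16 (quartiles -0.05 and 0.36), followed by -0.40 (quartiles -0.53 and -0.30) and -0.20 (quartiles -0.30 and -0.12). Over all genes tested the medians were -0.01, -0.01 and 0.00 after rounding. The mean of the heifers between the bounds lay between those of weak and strong responders for 825 of the 847 higher DEG (97.4%). It did so for 545 of the 582 lower DEG (93.6%) and for 64.2% of all genes tested. The DEG were selected for a wide gap between strong and weak responders. Over all genes tested the quartiles of strong minus weak were -0.19 and 0.16. A mean falls inside a wide gap more readily, so the larger shares among the DEG are no separate support for a graded course. The MX2 level took its largest step from the heifers under the lower bound to weak responders, but its steps follow from the bounds. The steps of the DEG are shaped by their selection on strong and weak responders. A contrast between the course of MX2 and that of the DEG is therefore no separate result.

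**Figure D4:**
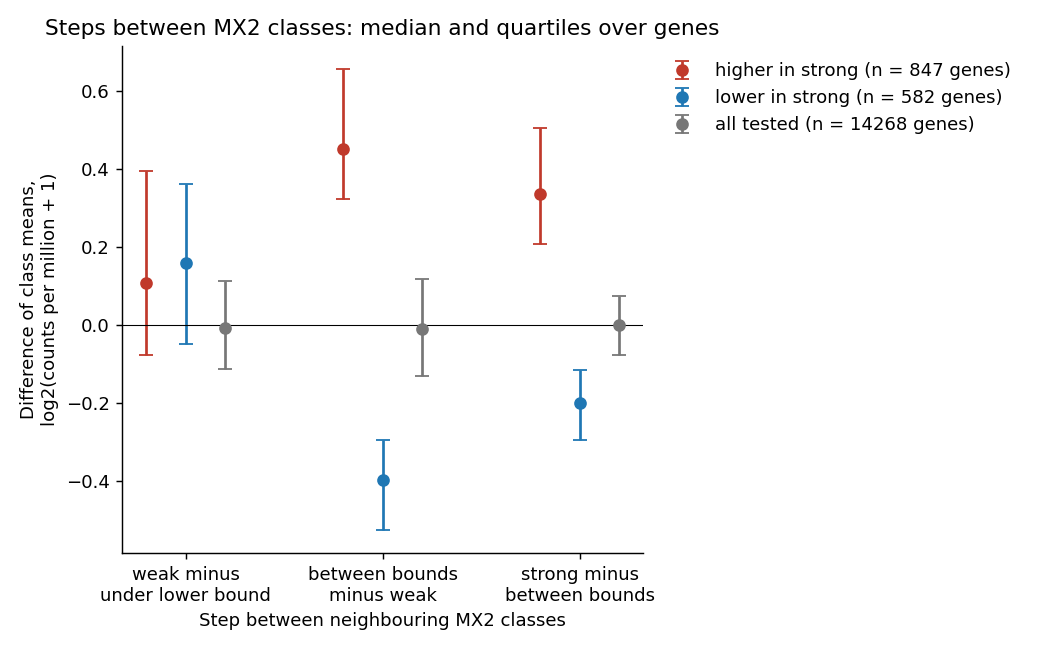
Steps between neighbouring MX2 classes as the difference of class means on the log2(CPM + 1) scale, with the median (point) and quartiles (bars) over genes for the higher DEG, the lower DEG and all genes tested. The first step is close to 0 for the higher DEG (0.11) and the lower DEG (0.16), and the later steps are 0.45 and 0.34 for the higher and -0.40 and -0.20 for the lower DEG.

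The number of DEG between weak responders and the heifers under the lower bound was smaller. In a model of all 60 heifers with 4 classes, 136 of 14646 genes tested were DEG (0.929%), of which 112 were higher (0.765%) and 24 lower (0.164%) in weak responders. Before adjustment 1503 genes had a p-value under 0.05. This comparison uses the same 7 weak responders as the one against strong responders, so its counts are only set side by side, and it has 14 heifers in place of 19 on the other side. At an adjusted p-value under 0.001 there were 76 higher and 0 lower DEG. The lower count ranged from 7 without PUFA_High replicate 14 to 47 without CON_Low replicate 4. It was also changed by more than 1.5 times without CON_High replicate 8 (9), CON_High replicate 9 (9), CON_Low replicate 12 (10), PUFA_Low replicate 10 (12), PUFA_Low replicate 13 (15) or PUFA_High replicate 11 (15).

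Single heifers varied within the classes. The DEG were chosen for their difference between these same strong and weak heifers, so the distance between both classes in the levels that follow was set by that choice and is no separate result. Summed over the 847 higher DEG, weak responders had 35866 to 56074 CPM with a median of 44663, and strong responders 74846 to 133274 CPM with a median of 103942. The heifers under the lower bound, at 27032 to 40532 CPM, overlapped the weak responders only through PUFA_Low replicate 2, which had the lowest weak sum. PUFA_Low replicate 1, with the lowest MX2 of the class, had 52618 CPM, the second highest weak sum, so the order of weak responders by this sum was not their order by MX2. In this heifer the 100 most abundant genes took 31.7% of the counts, the highest share among the weak responders, and the part of that share in its sums was not tested.

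Summed over the 582 lower DEG, weak responders had 44161 to 97110 CPM (median 55916) and strong responders 18269 to 69488 CPM (median 29661), so that these sums overlapped. The heifers under the lower bound had 36210 to 73975 CPM, with a median of 57860. A sum gives most weight to the most abundant genes. With each gene given equal weight, the mean log2(CPM + 1) of the 582 genes was 3.57 to 3.89 in weak and 2.84 to 3.38 in strong responders.

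**Figure D5:**
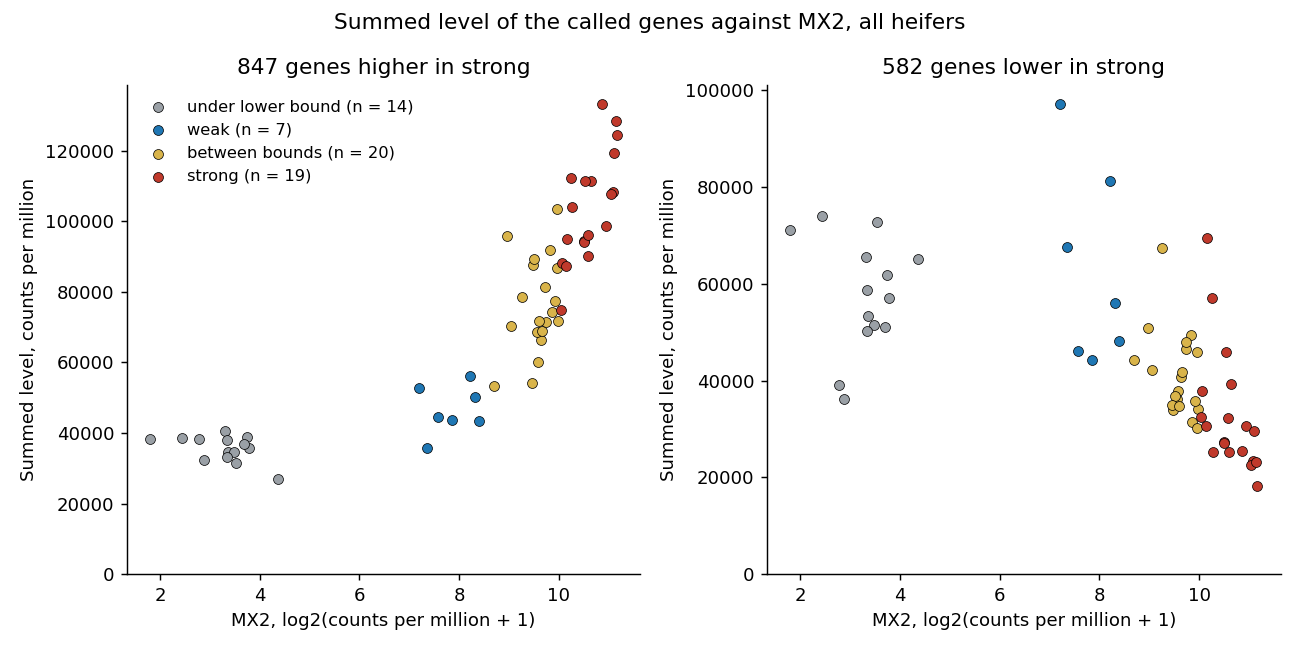
Summed level (CPM) of the higher DEG (left) and the lower DEG (right) against the MX2 level of the rule for all 60 heifers, coloured by class. On the left 6 of the 7 weak responders lie above all heifers under the lower bound, PUFA_Low replicate 2 lies within their range, and the highest sums are those of strong responders, and on the right weak responders and heifers under the lower bound share a range and the sum is lower towards the strong responders.

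The heifers between the bounds were not used to find the DEG, and their MX2 levels spanned x from 8.701 to 9.98. As an analysis added after the data were seen, each gene was regressed on x among these 20 heifers with dietary group as a covariate. No gene out of 13225 tested reached an adjusted p-value under 0.10 (0%, edgeR's quasi-likelihood test, smallest adjusted p = 0.119). Before adjustment 641 of the 13225 genes had a p-value under 0.05, about the share that this limit gives with no association. No other tool was run for this slope. Of the higher DEG, 734 could be fitted, and 581 of these slopes were above 0 (79.2%), with a median of 0.24 log2 units per unit of x. Of the lower DEG, 486 could be fitted, and 256 slopes were above 0 (52.7%), with a median of 0.03. Among all genes 49.96% of the slopes were above 0. In the direction of slopes, the higher DEG leaned the way of the strong and weak classes within this narrow range, and the lower DEG were close to all genes. These shares were not tested.

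The slopes of single genes were imprecise. That of ENSBTAG00000019979 was 0.68 (SE 0.15, edgeR, adjusted p = 0.313) and that of ENSBTAG00000020536 was 0.37 (SE 0.22, edgeR, adjusted p = 0.964). ENSBTAG00000001702 had a slope of -0.26 (SE 0.28, edgeR, adjusted p = 0.966), and ENSBTAG00000046160 had one of 0.06 (SE 0.17, edgeR, adjusted p = 0.976). With the share of the 100 most abundant genes as a covariate, 6 genes passed. Leaving out a single heifer gave 8 genes without CON_High replicate 11, 4 without CON_High replicate 4, and 2 each without PUFA_High replicate 3, PUFA_High replicate 6 or PUFA_Low replicate 14, all of them rising with MX2.

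Whether the contrast of strong and weak responders differed with diet was tested as an interaction of class with supplement and with plane. Between supplements no gene was a DEG (0%, edgeR, smallest adjusted p = 0.557). Before adjustment 1040 of 14268 genes were under 0.05, a larger share than this limit gives with no interaction, and this excess was not tested. DESeq2 called 2 genes, both with a lower strong minus weak difference in PUFA heifers. One gene was a DEG without CON_High replicate 8. The mean log2(CPM + 1) of the 847 higher DEG was 3.68 ± 0.14 (SD, n = 3) in weak and 4.53 ± 0.20 (SD, n = 12) in strong CON heifers, and 3.61 ± 0.13 (SD, n = 4) and 4.64 ± 0.18 (SD, n = 7) in PUFA heifers. For the 4 genes described above, the interaction with supplement lay between -0.04 and 0.40 on the log2 scale, with adjusted p-values from 0.772 to 0.997 in edgeR. These tests rest on 3 CON and 4 PUFA weak responders. Among them x ranged from 7.85 to 8.40 in CON (mean 8.16) and from 7.20 to 8.32 in PUFA heifers (mean 7.61). The strong minus weak difference of MX2 was 0.43 larger in PUFA heifers on the log2 scale (SE 0.34, untested). Supplement is thus not free of the MX2 level of the weak responders in this interaction.

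Between planes of nutrition 187 of 14268 genes were under 0.05 before adjustment, a smaller share than this limit gives with no interaction. In edgeR's quasi-likelihood test 1 gene was a DEG (0.00701%). It was ENSBTAG00000045751, a gene named here after its values were seen. Its level was 0.159, 0.171 and 0.233 CPM in the 3 weak responders on the high plane, from 2, 2 and 3 counts. The 4 weak responders on the low plane had 1.67, 3.61, 3.64 and 4.34 CPM. Strong responders had 0.473 to 4.32 CPM on the high (median 2.31, n = 9) and 0.684 to 5.09 CPM on the low plane (median 1.78, n = 10). Only the weak responders on the high plane stood apart, and over both planes strong and weak responders differed by 0.34 (edgeR, adjusted p = 0.697). Leaving out any of 18 of the 26 heifers put the adjusted p-value of the interaction at or above 0.10. Within the weak class, plane went with the MX2 level, with x from 8.21 to 8.40 on the high and from 7.20 to 7.85 on the low plane. The strong minus weak difference of MX2 was itself larger on the low plane, by 0.71 on the log2 scale (SE 0.32, untested). Plane and the MX2 level of the weak responders thus cannot be told apart in this interaction. For the 4 genes described above, the interaction with plane had an adjusted p-value of 1.00 in edgeR.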

How the data were processed

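Per the labels, total RNA of endometrial tissue was made into single-end Illumina TruSeq mRNA libraries. With TopHat2 2.0.9 the authors placed reads on the bovine UMD3.1 assembly, and with HTSeq 0.5.4p5 they counted them per gene, and CASAVA 1.4 is also listed in the submitters' processing notes. The authors deposited raw counts without normalization for 24616 genes (3947 at 0 throughout), and 0 columns were left unassigned. Strand and the treatment of multi-mapping reads are not given in the sources used here, so paralogous, overlapping and antisense genes are uncertain. Total counts ranged from 10214311 to 13306629 per weak and from 9712703 to 13144584 per strong responder.

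Genes were filtered (filterByExpr by class), scaled by TMM and fitted in edgeR 4.0.16 (R 4.3.3) by quasi-likelihood models with dietary group as a covariate. p-values were adjusted over all genes tested except MX2. The SE of a log2 difference or slope is its absolute value divided by the square root of the F statistic of the fit. CPM use TMM scaled library sizes of all 60 heifers, without a pseudocount unless stated. Fisher's exact and exact permutation tests were run in Python 3.11.15 with SciPy 1.17.1. The fit was tested on simulated counts, in which genes varied independently and diet had no effect, unlike in heifers sorted on MX2. It called 86 of 100 genes changed 2-fold and 98 of 100 changed 3-fold in the right direction, and 4 unchanged genes. No pair of the 325 among the strong and weak libraries differed as little as sampling noise (smallest chi-square per gene 16.1). The members, the bounds and the genes to be named were chosen with earlier results of these data known. The naming rule was MX2 and, since the gene table (ARS-UCD2.0) pairs 0 genes with an Ensembl identifier, the 2 DEG of each direction whose p-values were smallest. For the same reason planned lists of interferon, prostaglandin, immune and cell type genes were not used, and no sequence or coordinate is given. Alternatives were DESeq2 1.42.0, other scale factors, filters, limits, covariates and class bounds, and leaving out each heifer.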

Additional observations from a re-analysis of the deposited data

Results flagged for a closer look

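The effect of class on ENSBTAG00000045751 differed between the planes of nutrition, by -4.60 on the log2 scale (strong minus weak, low plane minus high plane, SE 0.80, edgeR's quasi-likelihood test of the interaction, p = 6.42e-06, adjusted p = 0.0916). This size depends on the prior count, since the 3 weak responders on the high plane had 2 or 3 counts each. Without each heifer in turn it ranged from -4.82 to -4.39, with adjusted p-values from 0.0188 to 1, and it passed in 8 of 26 cases. Among weak responders, plane cannot be told apart from the MX2 level, which was higher in all those on the high plane. No level of MX2, library measure or summed DEG level in the weak responders stood apart from the others of that class by Dixon's test.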

How the results depend on the processing

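The contrast of strong and weak responders gave 1429 DEG (847 higher, 582 lower). It gave 369 (305 and 64) at an adjusted p-value under 0.001, 3898 (2065 and 1833) without a fold limit, and 447 (339 and 108) with the heifers between the bounds counted as weak. With a replicate block it gave 427 (344 and 83), of which 390 were among the 1429. This block left 8 residual degrees of freedom in place of 21. Replicate numbers follow the order of the library code prefix within each dietary group, and the labels do not give them as a pairing. Residuals of the 15 same-numbered pairs correlated at -0.05 on average (-0.46 to 0.37) and those of 310 other pairs at -0.04. So few pairs with so wide a range cannot exclude a pairing. Leaving out each heifer gave 1195 to 1542 DEG (751 to 945 higher, 444 to 648 lower). Every other alternative for these counts stayed within 1.5 times, including DESeq2 (1524, of which 1419 shared), no dietary covariate (1364), the library code prefix as a block (1396), MX2 on TMM scaled sizes (1387, with 3 heifers in another class) and a higher bound for the strong class (1595).

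Between weak responders and heifers under the lower bound, the 24 lower DEG were 57 with DESeq2, 15 with at least 10 counts in every library, 5 at an adjusted p of 0.05 and 0 at 0.001, where 76 DEG remained in all. Leaving out each heifer gave 113 to 183 DEG (103 to 136 higher, 7 to 47 lower). The interaction with supplement gave 2 DEG, both lower, with DESeq2, and 0 to 1 (0 to 1 higher, 0 lower) without single heifers. The DEG of the interaction with plane was lost (0) with at least 10 counts in every library and at an adjusted p-value under 0.05 or 0.001, and the count was 0 to 1 without single heifers. Slopes between the bounds gave 6 genes, 6 of them rising, with the share of the 100 most abundant genes as a covariate, and 0 to 8 without single heifers (0 falling). No direction reversed, and the make-up and library measures kept their side of 0.05 throughout. The difference of MX2 itself was 2.36 or 1.44 with the heifers between the bounds counted as strong or weak. Where no construction of an alternative accounts for a change, the cause was not tested.

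Leaving out heifers in the interactions and in the comparison with the lowest heifers, and all slopes, were added after the data were seen. Depth was similar across libraries and limits genes with few counts, and every contrast rests on the same 7 weak responders.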
